A study of Homo sapiens with 24 samples.

Results

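The genes described here encode 10 parts of the SCF and APC/C ubiquitin ligases, the enzyme complexes that mark cell cycle proteins for destruction. They were taken as a list of names, drawn up with earlier results of these data known, and all 10 were found among the 57500 gene identifiers of the count files. The scaffold CUL1 and the F-box receptors SKP2, FBXW7 and BTRC belong to the SCF ligases. The subunit CDC27, the activators CDC20 and FZR1, the ubiquitin-conjugating enzymes UBE2C and UBE2S and the inhibitor FBXO5 belong to the APC/C. The cells were H2052, a human tumour line of mesothelial origin (pleural mesothelioma arises in the membrane around the lungs). They had been transfected through a lipid reagent, Lipofectamine RNAiMAX, with 20 nM of a microRNA mimic with biotin at its 3′ end. The mimic was either miR-497-5p, written miR-497-5p-RE in the labels, or a scrambled sequence meant to have no target, written Control. What the suffix -RE stands for is not given there. At 12 h and at 72 h after transfection total cellular RNA (RNA-seq) and RNA that streptavidin beads held back from a cytoplasmic extract through the biotin (pull-down) were sequenced from poly(A) libraries. The 24 libraries form 8 groups of 3: miR-497-5p-RE and Control, in each assay, at each time. All come from 1 cell line.

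An SCF ligase is built on the cullin CUL1, which holds a RING subunit at its C-terminal side and, through the adaptor SKP1, an F-box protein that recognises the substrate. SKP2 recognises the CDK inhibitor p27, FBXW7 recognises cyclin E and MYC, and BTRC recognises beta-catenin and the phosphatase CDC25A, in each case after phosphorylation. The APC/C is a large multi-subunit ligase that works from mitosis into G1 and destroys cyclin B, securin and many mitotic regulators. CDC20 activates it in mitosis and FZR1 (also called CDH1) from late mitosis through G1. UBE2C starts ubiquitin chains on its substrates, UBE2S extends them, and FBXO5 (also called EMI1) holds the APC/C inactive from late G1 to mitosis. miR-497-5p belongs to the miR-15/16 family, whose members share a seed and target several cell cycle genes.

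The guide strand of miR-497-5p is shown because its seed defines the sites searched for in these genes. It is given as RefSeq has it on GRCh38.p14, at chr17:7017979-7017999 on the minus strand, with bases 2 to 8, the seed, in capitals.
hsa-miR-497-5p: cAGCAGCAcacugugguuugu
The seed pairs with TGCTGCTA (an 8mer site), TGCTGCT (7mer-m8), GCTGCTA (7mer-A1) and GCTGCT (6mer). In the longest 3′ UTR that GENCODE 44 annotates for each gene, an 8mer or 7mer-m8 word was present in 3 of the 10 genes, FBXW7, BTRC and CDC27, against 22.5% of 19589 protein-coding genes. FBXW7 held 2 such words, BTRC 2 and CDC27 1. Below, each stands in 30 bases of its 3′ UTR in the direction of the transcript, with the site in capitals.
FBXW7 8mer, chr4:152322086-152322093, minus strand: aaacttatttaTGCTGCTAaatgaaagaaa
FBXW7 7mer-m8, chr4:152320707-152320713, minus strand: gactaaatacaTGCTGCTctttaagaaagt
BTRC 8mer, chr10:101553339-101553346, plus strand: gactgcttcagTGCTGCTAtcagaagatgt
BTRC 8mer, chr10:101555282-101555289, plus strand: tttctgtcataTGCTGCTAttacaaagtgg
CDC27 7mer-m8, chr17:47118269-47118275, minus strand: catttgaaccaTGCTGCTgttgtaccttaa
The second FBXW7 word lies outside the exons counted in the files, where the gene begins at 152321259. UBE2S held 2 6mer words in its 3′ UTR, BTRC a further 6mer and CDC27 a further 7mer-A1 (chr17:47120748-47120754). With any of the 4 words counted, 4 of the 10 genes held a site in the longest 3′ UTR, against 41.8% of all. SKP2 had a 7mer-A1 word in another annotated 3′ UTR, outside the exons counted in the files, where the gene ends at 36184319. CUL1, CDC20, FZR1, UBE2C and FBXO5 had none of the 4 words in any annotated 3′ UTR. In the coding sequence of the canonical transcript BTRC held 4 words, 1 of them a 7mer-m8. FZR1 held 4 words there, SKP2 and CUL1 2 each, FBXW7, CDC27, CDC20 and FBXO5 1 each, and UBE2C and UBE2S 0. The longest 3′ UTRs ran from 74 bases in CDC20 to 5347 bases in SKP2, with a median of 1193 over all genes. A word is a sequence match and does not show that the guide was bound there.

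Total counts were 21561816 to 30602007 in the RNA-seq libraries and 8262425 to 30650982 in the pull-down, where replicate 2 of the miR-497-5p-RE group at 72 h had the fewest. The biological coefficient of variation was 0.0601 in RNA-seq and 0.349 in the pull-down, so the pull-down resolves only larger differences. Of 13 mesothelial markers, 12 or 13 had any count at all in each RNA-seq group. MSLN was at 42.7 to 80.4 CPM (the read count relative to library size) in the RNA-seq libraries. CALB2 was at no more than 2.16 CPM, UPK3B at no more than 0.603 CPM and ITLN1 at or near 0. KRT5 ran from 0 to 166 CPM, with a median of 3.41 CPM. Of 15 squamous epithelial markers all had counts at 12 h. Their summed RNA-seq level was 13.2 to 395 CPM with miR-497-5p-RE and 173 to 441 CPM with Control at 12 h. In the pull-down it was 27.6 to 484 CPM with miR-497-5p-RE and 11.9 to 523 CPM with Control at 12 h, and at 72 h no library of either assay exceeded 3.72 CPM. The part of those transcripts in the 12 h results was not tested. Leukocyte markers summed to at most 12.4 CPM and endothelial markers to at most 5.67 CPM in any library.

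Levels below are CPM scaled by TMM within each assay. Differences are log2 fold changes, miR-497-5p-RE over Control, from edgeR's quasi-likelihood test with Benjamini-Hochberg adjustment over all genes tested. A gene was called at an adjusted p under 0.05. The standard error after ± was worked back from the fold change and the test statistic. The 95% intervals span 1.96 of these errors on each side, a normal approximation that can be narrower than the test implies. Whether the libraries of 2 groups overlapped is given as a description and was not counted over all genes. All 10 genes passed the filter on low counts in every main fit. FBXO5 did not pass it in the 72 h pull-down when only the 6 libraries compared were fitted. Per kilobase of exon, the Control RNA-seq levels at 12 h were highest for the APC/C conjugating enzymes and the mitotic activator. UBE2S had 325, UBE2C 217 and CDC20 146 CPM per kb. SKP2 followed at 50.6 CPM per kb, then CDC27 at 17, CUL1 at 16.6, FZR1 at 13.5, FBXO5 at 7.64, BTRC at 3.16 and FBXW7 at 1.38 CPM per kb. CDC27 and CUL1, neighbours in this order, differed by less than their spread between libraries.

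At 12 h the RNA-seq libraries addressed which of these transcripts changed first. BTRC, CDC27 and FBXW7 fell and CDC20 rose slightly, while the other 6 genes did not pass the test. The 3 genes that fell are the 3 with an 8mer or 7mer-m8 word in the longest 3′ UTR. That match depended on the setting. With a replicate block and an offset for gene length, FBXW7 was not called (adjusted p 0.132). SKP2, without such a word, was then called lower (-0.11, adjusted p 0.0238), as in DESeq2 and with scaling by library totals. How many of all genes with such a word were called lower was not counted. Over all 17335 genes tested, 5.3% were called lower and 7.25% higher. With 1 gene higher and 3 lower, the 10 genes had a median log2 fold change of -0.03, and all genes tested had 0.01.

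BTRC (ENSG00000166167, beta-TrCP, chromosome 10, 101354033 to 101557321 in GRCh38) had 15.8, 13.6 and 13.4 CPM in the miR-497-5p-RE libraries, against 19.9, 21.6 and 21.2 CPM in the Control libraries. Every miR-497-5p-RE library lay below every Control library, and BTRC fell by 0.55 ± 0.08 on the log2 scale (adjusted p 7.5e-07). CDC27 (ENSG00000004897, chromosome 17, 47117703 to 47189422), a subunit of the arm of the APC/C that receives its activators, had 93.7, 102 and 99.4 CPM with miR-497-5p-RE, against 116, 112 and 119.9 CPM with Control. The groups did not overlap, and CDC27 fell by 0.24 ± 0.04 (adjusted p 6.02e-05). FBXW7 (ENSG00000109670, chromosome 4, 152320544 to 152536092) had 12.2, 11.4 and 12.1 CPM with miR-497-5p-RE, against 15, 13.8 and 13.9 CPM with Control. These groups did not overlap either, and FBXW7 fell by 0.26 ± 0.08 (adjusted p 0.0181). The FBXW7 call ended without Control replicate 1 (adjusted p 0.107), without miR-497-5p-RE replicate 2 (0.0831) and with only the 6 libraries compared in the fit (0.0505), in a range of 0.00441 to 0.132 over 12 alternatives.

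CDC20 (ENSG00000117399, chromosome 1, 43358981 to 43363203) had 335, 315 and 318 CPM with miR-497-5p-RE at 12 h, against 298, 295 and 300.0 CPM with Control. The groups did not overlap, although the difference was small, with a log2 fold change of 0.12 ± 0.03 (adjusted p 0.0211). The CDC20 call was lost without Control replicate 1 (adjusted p 0.0507), Control replicate 2 (0.0868) or miR-497-5p-RE replicate 1 (0.0796), and with scaling by library totals (log2 fold change 0.07, adjusted p 0.203). It was also lost without a filter on low counts (adjusted p 0.081) and with only the 6 libraries compared (0.0538). With a replicate block and an offset for gene length the log2 fold change was 0.03 (adjusted p 0.631). Over 12 alternatives the adjusted p ranged from 0.00506 to 0.631, and 5 of them kept the call. SKP2 had 183, 183 and 182 CPM with miR-497-5p-RE, against 189, 195 and 198 CPM with Control. Its libraries did not overlap, but its log2 fold change of -0.09 ± 0.03 missed the threshold (adjusted p 0.0915). SKP2 passed when scaled by library totals (-0.14, adjusted p 0.00347) and in DESeq2 (-0.09, adjusted p 0.0427). It also passed with a replicate block and an offset for gene length (-0.11, adjusted p 0.0238), in a range of 0.00347 to 0.287 over 12 alternatives. The remaining genes had overlapping groups, with log2 fold changes of 0.11 ± 0.06 for UBE2S (adjusted p 0.253, and 0.0274 without miR-497-5p-RE replicate 2, in a range of 0.0116 to 0.559 over 12 alternatives), 0.08 ± 0.08 for FBXO5 (0.593), 0.01 ± 0.03 for UBE2C (0.851), -0.02 ± 0.05 for FZR1 (0.894) and -0.04 ± 0.06 for CUL1 (0.716).

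**Figure D1:**
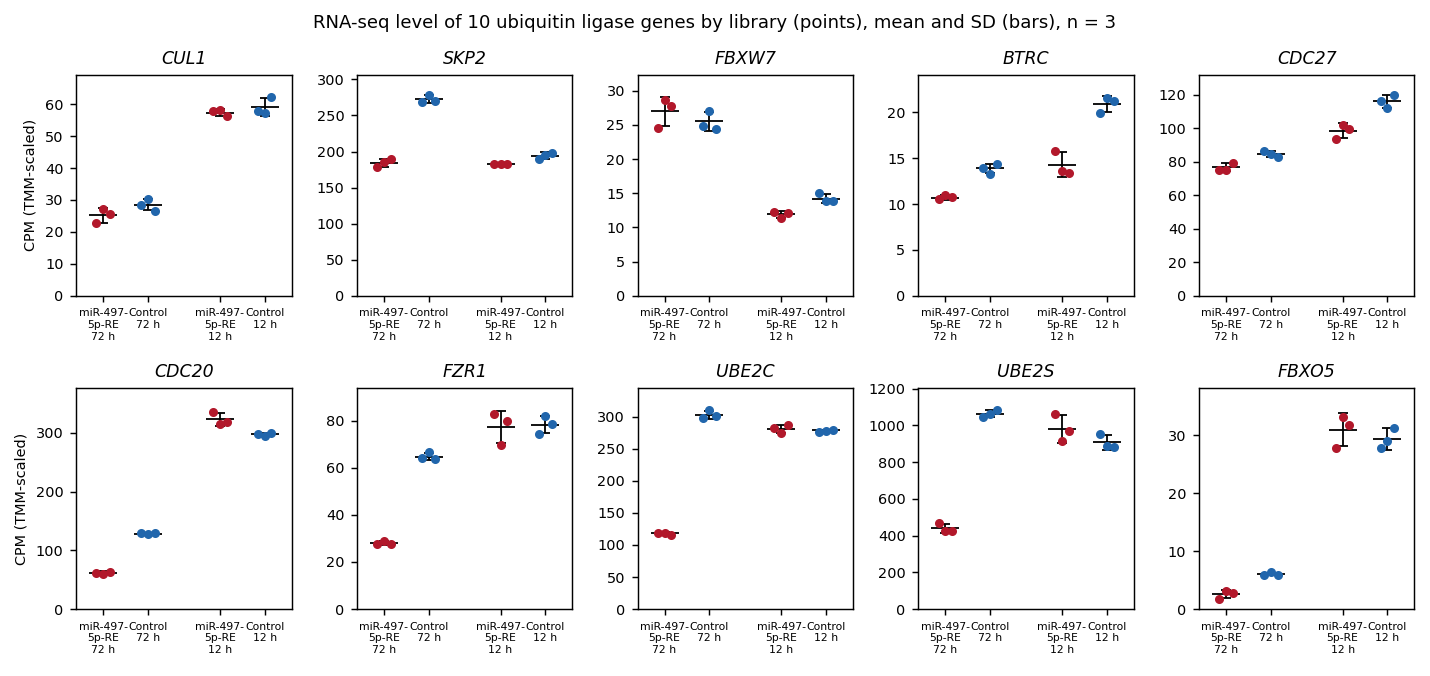
RNA-seq level of each gene in CPM (vertical axis, starting at 0, own scale per gene) in the 4 groups, with points for libraries and bars for the mean and SD of 3. At 72 h the miR-497-5p-RE libraries of CDC20, FZR1, UBE2C, UBE2S and FBXO5 all sit far below the Control libraries, while at 12 h only BTRC, CDC27, FBXW7, CDC20 and SKP2 have groups that do not overlap. Groups without overlap were not counted over all genes.

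At 72 h in RNA-seq, 9 of the 10 genes were lower with miR-497-5p-RE and none was higher, against 29.6% of all genes tested called lower and 27.9% called higher. Their median log2 fold change was -0.81 beside 0.00 over all genes. The activators, the conjugating enzymes and the inhibitor of the APC/C fell by more than 1 log2 unit each. The SCF parts and CDC27 changed less, and FBXW7 did not pass the test. These are bulk RNA measurements, in which fewer cells in the phases that express a gene and less RNA of that gene per cell cannot be told apart.

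UBE2C (ENSG00000175063, chromosome 20, 45812576 to 45816957), which starts ubiquitin chains on APC/C substrates, had 118, 119 and 116 CPM with miR-497-5p-RE at 72 h, against 298, 310.1 and 302 CPM with Control. The groups stood well apart, and UBE2C fell by 1.37 ± 0.03 on the log2 scale (adjusted p 5.15e-33), to 0.387 times the Control level. UBE2S (ENSG00000108106, chromosome 19, 55399745 to 55407788), which lengthens those chains, had 469.5, 423 and 423 CPM with miR-497-5p-RE, against 1047, 1064 and 1082 CPM with Control. The groups did not overlap, and UBE2S fell by 1.28 ± 0.06 (adjusted p 1.37e-09).

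Both activators fell. FZR1 (ENSG00000105325, chromosome 19, 3506311 to 3538334), the activator of G1, had 27.7, 28.9 and 27.6 CPM with miR-497-5p-RE at 72 h, against 64, 66.7 and 63.8 CPM with Control. The libraries within a group were close together, and FZR1 fell by 1.21 ± 0.06 (adjusted p 4.65e-23). CDC20, the mitotic activator and the target of the spindle checkpoint, had 62, 58.8 and 63.9 CPM with miR-497-5p-RE, against 129, 127 and 129 CPM with Control. The groups did not overlap, and CDC20 fell by 1.06 ± 0.04 (adjusted p 5.16e-27). Its direction at 12 h was the opposite, but that small rise kept its call in only 5 of 12 alternatives. FBXO5 (ENSG00000112029, chromosome 6, 152970519 to 152983579), the inhibitor of the complex, had 1.79, 3.12 and 2.7 CPM with miR-497-5p-RE, against 5.93, 6.3 and 5.91 CPM with Control. It fell by 1.25 ± 0.14 (adjusted p 1.11e-10), on 35 to 59 counts a library with miR-497-5p-RE and 142 to 164 with Control. The core subunit CDC27 had 75.2, 75.1 and 79.4 CPM with miR-497-5p-RE, against 86.1, 84.8 and 82.9 CPM with Control. Its groups stood apart by a narrow margin, and it fell by 0.14 ± 0.04 (adjusted p 0.00497).

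Among the SCF genes SKP2 (ENSG00000145604, chromosome 5, 36151989 to 36196849) changed most at 72 h. It had 178, 186 and 189 CPM with miR-497-5p-RE, against 269, 279 and 270.0 CPM with Control. The groups did not overlap, and SKP2 fell by 0.56 ± 0.04 (adjusted p 9.77e-19). BTRC had 10.5, 11 and 10.8 CPM with miR-497-5p-RE, against 13.9, 13.3 and 14.4 CPM with Control. It was lower in every miR-497-5p-RE library, with a fall of 0.37 ± 0.09 (adjusted p 0.000283). CUL1 (ENSG00000055130, chromosome 7, 148697914 to 148801110) had 22.8, 27.3 and 25.6 CPM with miR-497-5p-RE, against 28.5, 30.2 and 26.7 CPM with Control. Its groups overlapped and it fell by 0.18 ± 0.06 (adjusted p 0.0187), which was no longer called when miR-497-5p-RE replicate 1 (adjusted p 0.208) or Control replicate 2 (0.139) was left out, in a range of 0.000239 to 0.321 over 12 alternatives. FBXW7 had 24.6, 28.6 and 27.7 CPM with miR-497-5p-RE, against 24.9, 27.1 and 24.4 CPM with Control. The groups overlapped, with a log2 fold change of 0.08 ± 0.07 (95% interval -0.06 to 0.22, adjusted p 0.347).

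**Figure D2:**
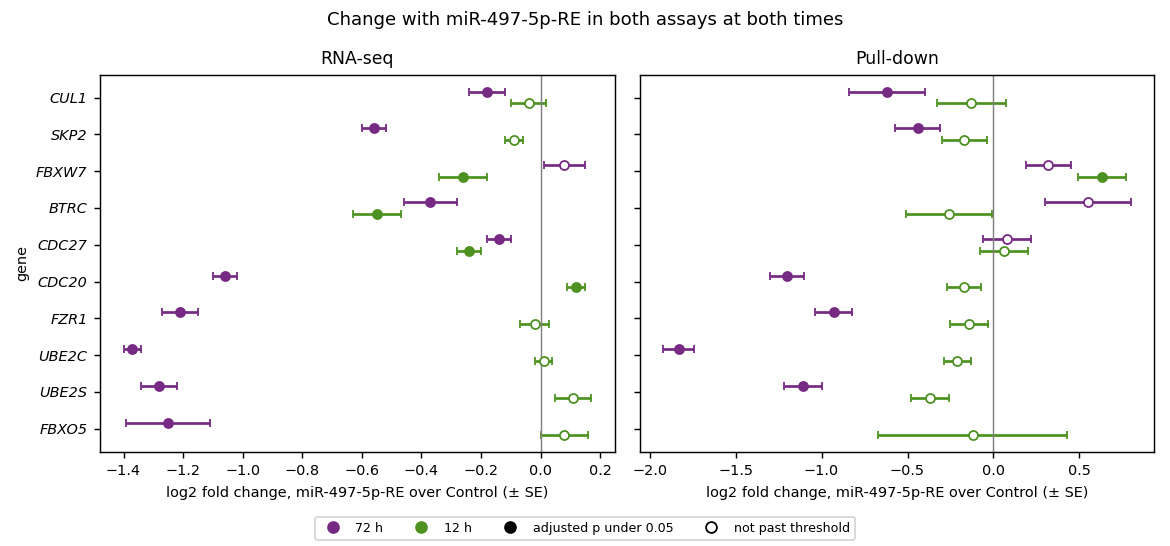
Log2 fold change, miR-497-5p-RE over Control, ± the standard error (horizontal axis, with its own scale in each panel) for each gene in RNA-seq (left) and in the pull-down (right), at 72 h (purple) and 12 h (green). Filled points passed an adjusted p of 0.05; the 72 h points of the APC/C activators and conjugating enzymes lie near or below -0.93 in both panels, FBXW7 is the filled point to the right of 0 in the pull-down, and FBXO5 in the pull-down at 72 h is left out because of its counts.

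The effect at 72 h differed from that at 12 h, by a contrast of the 2 effects in the same fit, for 7 of the 10 genes, with 6 more negative and 1 more positive at 72 h. Of all genes, 26.2% had a more negative and 22.5% a more positive effect. The differences were -1.39 ± 0.08 for UBE2S, -1.38 ± 0.05 for UBE2C, -1.33 ± 0.16 for FBXO5, -1.19 ± 0.08 for FZR1 and -1.17 ± 0.05 for CDC20, with adjusted p from 2.34e-08 for UBE2S to 3.03e-27 for UBE2C. SKP2 had a difference of -0.48 ± 0.05 (adjusted p 2.41e-11). FBXW7 moved the other way, by 0.34 ± 0.10 (adjusted p 0.00586). For the 2 other genes with 8mer or 7mer-m8 words the difference did not pass the test, at 0.18 ± 0.12 for BTRC (95% interval -0.05 to 0.41, adjusted p 0.203) and 0.09 ± 0.06 for CDC27 (-0.03 to 0.21, adjusted p 0.213). CUL1 had -0.13 ± 0.09 (adjusted p 0.211).

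The ligase genes also differed between the times in the Control cells, which gives the level against which the 72 h effect was measured. Squamous epithelial markers summed to 173 to 441 CPM in the Control RNA-seq libraries at 12 h and at most 3.72 CPM at 72 h. Time therefore cannot be told apart from other differences between these sets of libraries. Between Control libraries at 72 h and at 12 h all 10 genes passed the test in RNA-seq, with 4 higher and 6 lower at 72 h, against 36.1% of all genes higher and 38.4% lower. FBXO5 averaged 6.05 ± 0.221 CPM at 72 h and 29.3 ± 1.87 CPM at 12 h (SD, n = 3 each; log2 fold change -2.28 ± 0.09, adjusted p 9.23e-25). CDC20 averaged 128 ± 0.99 CPM at 72 h and 298 ± 2.36 CPM at 12 h (-1.21 ± 0.04, adjusted p 3.02e-31). CUL1 fell by 1.05 ± 0.06, BTRC by 0.59 ± 0.08, CDC27 by 0.46 ± 0.04 and FZR1 by 0.27 ± 0.05. FBXW7 rose by 0.84 ± 0.07, to 25.5 ± 1.44 CPM at 72 h against 14.2 ± 0.623 CPM at 12 h (adjusted p 1.86e-14), and SKP2 rose by 0.49 ± 0.03. UBE2S had 0.23 ± 0.06 and UBE2C 0.12 ± 0.03, and these turned to -0.02 and -0.13 when the libraries were scaled by their totals, a scaling that moved the median of all genes from -0.00 to -0.25. The inhibitor FBXO5 and the activator CDC20 were thus lower at 72 h than at 12 h in the Control cells, and lower again with miR-497-5p-RE.

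The pull-down at 12 h addressed which transcripts were held back with the biotinylated guide. Of the 10 genes FBXW7 was called higher and none lower, against 0.326% of all 17477 genes tested called higher and 0.269% lower. FBXW7 had 40.2, 27 and 37.3 CPM in the miR-497-5p-RE pull-down, against 21.8, 22.9 and 22.5 CPM in the Control pull-down. Every miR-497-5p-RE library was above every Control library, with a wide spread among the miR-497-5p-RE libraries, and FBXW7 rose by 0.63 ± 0.14 (adjusted p 0.03). It rested on 733 to 1075 counts a library with miR-497-5p-RE and 463 to 474 with Control. The call ended without Control replicate 1 (adjusted p 0.0972), Control replicate 2 (0.0594), miR-497-5p-RE replicate 1 (0.0636) or miR-497-5p-RE replicate 3 (0.0908), and with only the 6 libraries compared (0.111), in a range of 0.00124 to 0.111 over 12 alternatives, with log2 fold changes of 0.54 to 0.78.

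The other 2 genes with 8mer or 7mer-m8 words did not pass the test in the pull-down at 12 h. CDC27 had 52.8, 51.2 and 59.4 CPM with miR-497-5p-RE, against 49.9, 54.8 and 52.1 CPM with Control, and BTRC had 16.3, 13.9 and 11.9 CPM, against 18.9, 16.5 and 15 CPM. In both the groups overlapped, with log2 fold changes of 0.06 ± 0.14 for CDC27 (95% interval -0.21 to 0.33, adjusted p 0.956) and -0.26 ± 0.25 for BTRC (-0.74 to 0.22, adjusted p 0.841). UBE2S had 1003, 725 and 938 CPM with miR-497-5p-RE, against 1016, 1087 and 1335 CPM with Control. Its groups did not overlap, and its log2 fold change of -0.37 ± 0.11 missed the threshold in the main fit (adjusted p 0.142). UBE2S passed it in DESeq2 (adjusted p 0.0291) and without a filter on low counts (0.0152), in a range of 0.0152 to 0.322 over 12 alternatives. UBE2C stood at -0.21 ± 0.08 (adjusted p 0.374), CDC20 and SKP2 at -0.17, FZR1 at -0.14, CUL1 at -0.13 and FBXO5 at -0.12, none past the threshold.

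**Figure D3:**
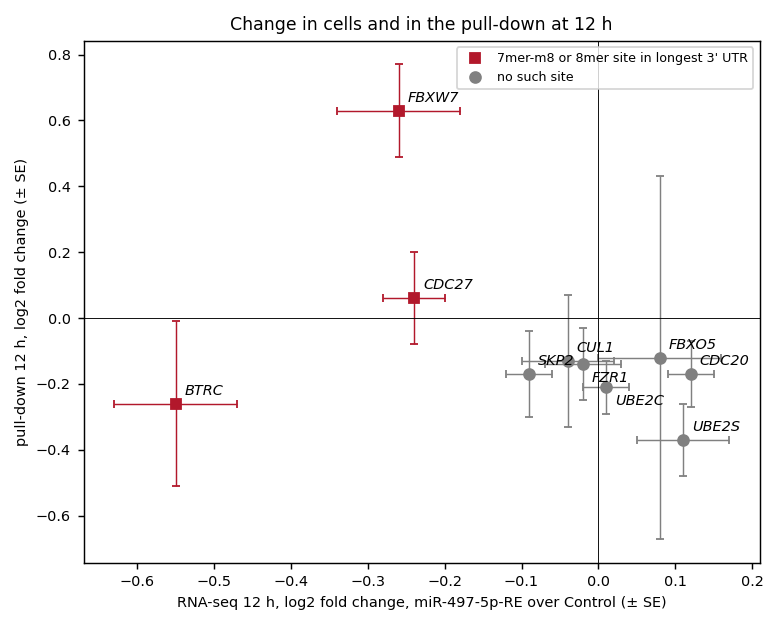
Log2 fold change at 12 h, miR-497-5p-RE over Control, in RNA-seq (horizontal axis) against the pull-down (vertical axis), ± the standard error, for the 10 genes. The 3 genes with an 8mer or 7mer-m8 word (red squares) are the 3 furthest to the left, at -0.24 to -0.55, and only FBXW7 stands above 0 by more than its error in the pull-down.

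Set against the RNA-seq effect at the same time, in a fit over the 12 libraries of 12 h, the FBXW7 pull-down effect was larger by 0.91 ± 0.19 (adjusted p 0.0299). FBXW7 was the only gene of the 10 called, with 0.984% of 17078 genes called higher and 0.357% lower in that contrast. The value used the same libraries as the comparisons above and stayed between 0.81 and 1.04 when a library was left out. Its call ended in 8 of the 12 cases: without any 1 of the 6 RNA-seq libraries (adjusted p 0.0832 to 0.0983) and without Control pull-down replicate 1 (0.0612) or 2 (0.0548). CDC27 had a difference of 0.32 ± 0.12 (adjusted p 0.2) and BTRC 0.31 ± 0.19 (0.476). For UBE2S it was -0.46 ± 0.16 (adjusted p 0.171). Scaling by library totals moved the median of all genes in this contrast from 0.01 to 0.13, so differences of that size cannot be read apart from the scaling.

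At 72 h the pull-down held less of 6 of the 10 genes with miR-497-5p-RE, and of none more, against 12.6% of all genes called lower and 10.2% higher. These were UBE2C, CDC20, UBE2S, FZR1, CUL1 and SKP2, and each of them had also fallen in RNA-seq at 72 h. UBE2C had 147, 140.0 and 153 CPM with miR-497-5p-RE, against 541, 483 and 545 CPM with Control. The gap was wide, and UBE2C fell by 1.83 ± 0.09 (adjusted p 1.97e-13). CDC20 had 162, 168 and 176 CPM with miR-497-5p-RE, against 375, 401 and 388 CPM with Control. It fell by 1.20 ± 0.10 (adjusted p 3.28e-09), with groups far apart. UBE2S had 416, 380.2 and 412 CPM with miR-497-5p-RE, against 855, 904 and 853 CPM with Control, and FZR1 had 81.5, 89 and 104 CPM, against 184, 173 and 164 CPM. Neither gene had overlapping groups, and they fell by 1.11 ± 0.11 for UBE2S (adjusted p 2.5e-08) and 0.93 ± 0.11 for FZR1 (6.15e-07).

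SKP2 and CUL1 had smaller falls in the 72 h pull-down. SKP2 had 39.2, 41.4 and 50.2 CPM with miR-497-5p-RE, against 62.2, 59.2 and 57 CPM with Control. The groups did not overlap, and SKP2 fell by 0.44 ± 0.13 (adjusted p 0.0148), a call that ended without Control replicate 1 (adjusted p 0.0525), miR-497-5p-RE replicate 1 (0.0822) or miR-497-5p-RE replicate 2 (0.0531), in a range of 0.00691 to 0.0822 over 12 alternatives. CUL1 had 12, 9.72 and 7.69 CPM with miR-497-5p-RE, against 17.3, 9.94 and 18.2 CPM with Control. Control replicate 2 lay within the miR-497-5p-RE values, and CUL1 fell by 0.62 ± 0.22 (adjusted p 0.0392). Without Control replicate 1 (adjusted p 0.137), Control replicate 3 (0.173), miR-497-5p-RE replicate 2 (0.0821) or miR-497-5p-RE replicate 3 (0.189) the CUL1 call ended, in a range of 0.00352 to 0.189 over 12 alternatives.

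None of the 3 genes with 8mer or 7mer-m8 words was called in the 72 h pull-down, and all had positive values. FBXW7 had 114, 126 and 139 CPM with miR-497-5p-RE, against 96.3, 107 and 101 CPM with Control. Its groups did not overlap, and its log2 fold change of 0.32 ± 0.13 missed the threshold in the main fit (95% interval 0.06 to 0.58, adjusted p 0.0893). FBXW7 passed it in DESeq2 (adjusted p 0.042) and with only the 6 libraries compared (0.00523), in a range of 0.00523 to 0.358 over 12 alternatives. BTRC had 16.4, 9.45 and 12.5 CPM with miR-497-5p-RE, against 10.1, 9.86 and 6.56 CPM with Control. Its groups overlapped, on 70 to 311 counts a library with miR-497-5p-RE and 134 to 254 with Control, and its log2 fold change was 0.55 ± 0.25 (0.05 to 1.04, adjusted p 0.128). CDC27 had 28.1, 30.1 and 29.5 CPM with miR-497-5p-RE, against 24.8, 26.1 and 32.2 CPM with Control. Its groups overlapped too, at 0.08 ± 0.14 (-0.21 to 0.36, adjusted p 0.783). FBXO5 was barely detected, with 14, 4 and 0 counts with miR-497-5p-RE, against 6, 0 and 5 counts with Control, so no fold change is given. A count of 0 allows up to 3 counts, covering counting error only. Relative to library totals, without TMM scaling, that is 0.141 CPM in miR-497-5p-RE replicate 3 and 0.0979 CPM in Control replicate 2.

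**Figure D4:**
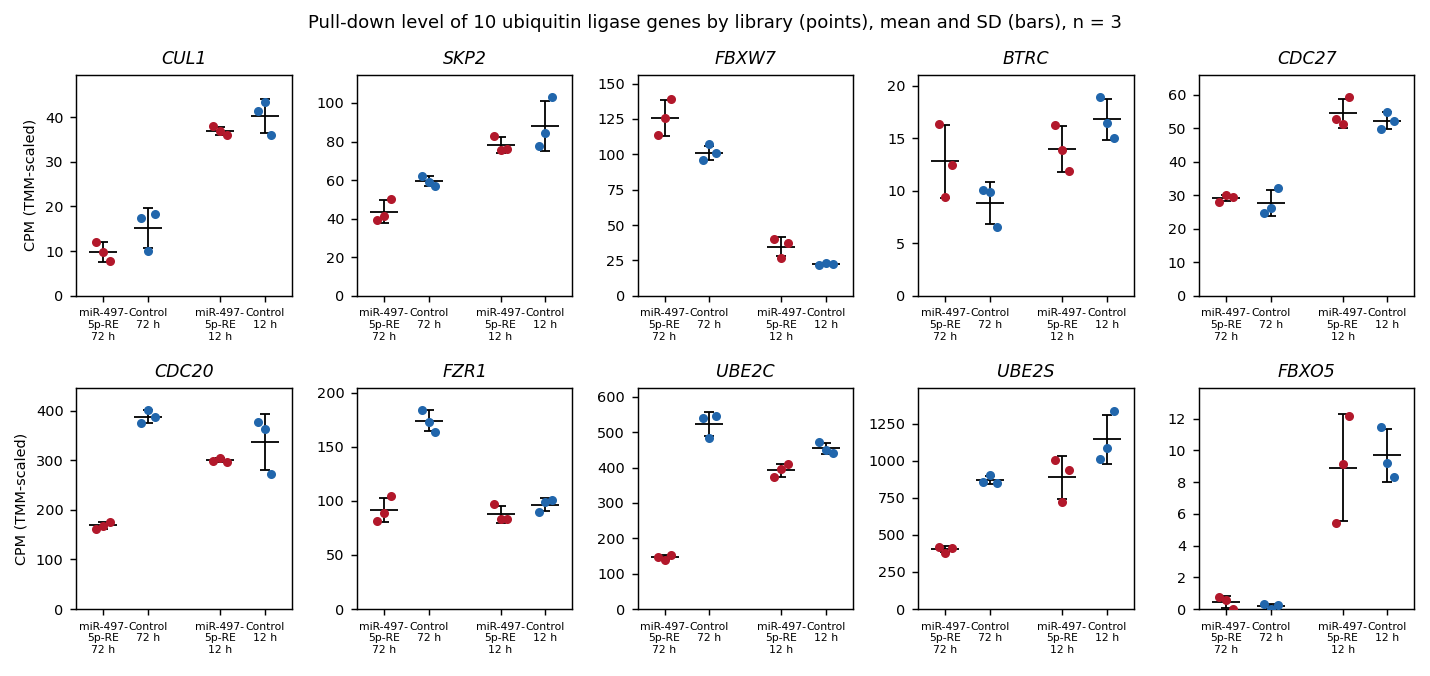
Pull-down level of each gene in CPM (vertical axis, starting at 0, own scale per gene) in the 4 groups, with points for libraries and bars for the mean and SD of 3. At 72 h the miR-497-5p-RE libraries of UBE2C, CDC20, UBE2S, FZR1 and SKP2 lie below all Control libraries, those of FBXW7 lie above, and FBXO5 is close to 0.

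Between the times the pull-down effect differed for 4 of the 10 genes, all more negative at 72 h, against 6.27% of all genes more negative and 5.94% more positive. UBE2C differed by -1.62 ± 0.12 (adjusted p 1.42e-09), CDC20 by -1.03 ± 0.14 (1.9e-05), FZR1 by -0.79 ± 0.16 (0.00101) and UBE2S by -0.74 ± 0.15 (0.00125). BTRC had 0.81 ± 0.35 (adjusted p 0.15) and FBXW7 -0.32 ± 0.19 (0.334), so neither change with time was resolved. At 72 h the pull-down effect was also set against the RNA-seq effect, with 7.46% of 16896 genes called higher and 7.01% lower. BTRC was called higher, with a difference of 0.90 ± 0.29 (adjusted p 0.0457), made of 0.55 in the pull-down and -0.37 in RNA-seq. UBE2C was called lower, with a difference of -0.48 ± 0.07 (adjusted p 0.000139), so that its pull-down level fell by more than its RNA-seq level. That fit shared dispersion over both assays, and the standard error was below the 0.09 of the UBE2C pull-down effect alone. The spread of the pull-down may therefore be understated there. FBXW7 had 0.22 ± 0.12 (adjusted p 0.268) and CDC27 0.20 ± 0.13 (0.373). The BTRC call ended in 8 of 12 cases when a library was left out: without any 1 of the 6 RNA-seq libraries (adjusted p 0.0894 to 0.112), Control pull-down replicate 3 (0.0791) or miR-497-5p-RE pull-down replicate 1 (0.103), with the difference between 0.69 and 1.06 throughout. Scaling by library totals moved the median of all genes in this contrast from 0.00 to 0.14 and called FZR1 (0.40) and UBE2S (0.29) higher as well.

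Because CDC20, FZR1, UBE2C, UBE2S and FBXO5 moved together at 72 h, their promoters were searched, on both strands, for TTTGAA and TTCGAA, the forms of the cell cycle genes homology region (CHR) that repressor and activator complexes of late cell cycle genes bind, and for CCAAT, the site of NF-Y. RefSeq promoters (GRCh38.p14, 250 bases before to 50 after the start) were at hand for 8 of the 10 genes, 17 promoters in all, and not for UBE2C and BTRC. A TTTGAA or TTCGAA word was present in 5 of the 17, against 16.4% of 35116 promoters, and CCAAT in 7 of the 17, against 34.6%. The CDC20 promoter (chr1:43358731-43359030, plus strand), 1 of the 2 FBXO5 promoters (chr6:152982992-152983291, minus strand) and 1 of the 4 FBXW7 promoters (chr4:152352777-152353076, minus strand) held both kinds of word and are printed for that reason, with the words in capitals in either orientation.
CDC20 promoter: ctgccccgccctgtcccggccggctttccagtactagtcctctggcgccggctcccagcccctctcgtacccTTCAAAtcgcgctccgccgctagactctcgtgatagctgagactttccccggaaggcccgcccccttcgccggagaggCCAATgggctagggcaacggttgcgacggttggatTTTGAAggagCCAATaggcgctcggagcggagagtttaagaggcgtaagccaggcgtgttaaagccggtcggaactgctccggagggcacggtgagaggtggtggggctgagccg
FBXO5 promoter: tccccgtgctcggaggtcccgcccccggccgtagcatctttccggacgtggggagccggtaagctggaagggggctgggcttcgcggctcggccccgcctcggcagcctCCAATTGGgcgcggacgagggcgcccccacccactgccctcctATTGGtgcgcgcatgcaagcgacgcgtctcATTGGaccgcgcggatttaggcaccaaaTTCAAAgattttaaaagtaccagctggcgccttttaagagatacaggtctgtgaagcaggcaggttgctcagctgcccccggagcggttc
FBXW7 promoter: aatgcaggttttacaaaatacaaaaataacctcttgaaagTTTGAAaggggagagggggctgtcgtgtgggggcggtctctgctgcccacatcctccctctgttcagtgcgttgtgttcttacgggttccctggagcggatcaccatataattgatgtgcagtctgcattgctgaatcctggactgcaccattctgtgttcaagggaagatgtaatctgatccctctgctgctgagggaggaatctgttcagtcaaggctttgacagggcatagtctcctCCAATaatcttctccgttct
The CDC20 promoter held 2 TTTGAA and 2 CCAAT words, and the FBXO5 promoter 1 TTTGAA and 4 CCAAT words, of which 2 overlap. The FBXW7 promoter held 1 TTTGAA and 1 CCAAT, although FBXW7 did not share the fall at 72 h. FZR1 had 1 TTTGAA in 1 of its 2 promoters and UBE2S 1 CCAAT. Among the other genes without the large fall, CUL1 had TTCGAA in 1 and CCAAT in 2 of its 5 promoters, CDC27 had CCAAT in its promoter, and SKP2 had neither kind of word. Of the 7 promoters with CCAAT, 4 thus belonged to CUL1, FBXW7 and CDC27. The same promoters were also searched for E2F words, exact sequences that cover only some forms of the sites of E2F transcription factors. Of the 17 promoters 0 held an E2F word, against 3.31% of the 35116. With so rare a word, 0 of 17 cannot tell these promoters from others and does not show that they lack E2F sites. All these words describe sequence and not binding.

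Other genes of the 2 pathways were read from lists drawn up by function, against the shares of all genes called at 72 h in RNA-seq, 27.9% higher and 29.6% lower. At 72 h in RNA-seq, the SCF core list, which mixes parts of the ligase with its regulators, had 3 of 10 genes higher and 4 lower. It showed no common direction as a whole (median log2 fold change -0.10, beside 0.00 over all genes). CKS1B, the cofactor that SKP2 needs to bind p27, averaged 15.5 ± 0.998 CPM with miR-497-5p-RE and 76.9 ± 0.951 CPM with Control (SD, n = 3 each) and fell by 2.31 ± 0.05 (adjusted p 1.99e-35). SKP1, the adaptor shared by all SCF ligases, rose by 0.20 ± 0.04 (adjusted p 7.83e-05). The NEDD8 conjugating enzyme UBE2M fell by 0.80 ± 0.05, the RING subunit RBX1 by 0.44 ± 0.05 and NEDD8, the modifier that activates cullins, by 0.25 ± 0.04. Of 18 other F-box receptors 3 rose and 6 fell (median -0.06), so that neither they nor the SCF core list stood far from the shares of all genes. CCNF, cyclin F, which is itself an F-box protein, fell by 1.29 ± 0.06, FBXL14 by 1.23 ± 0.15 and FBXO31 by 0.46 ± 0.09, while FBXO28 rose by 0.42 ± 0.07.

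Of 13 other APC/C subunits 3 rose and 8 fell at 72 h (median -0.30). CDC16, a subunit of the same arm as CDC27, rose by 0.69 ± 0.04 (adjusted p 2.05e-20), whereas the RING subunit ANAPC11 fell by 0.66 ± 0.04, ANAPC13 by 0.57 ± 0.04 and ANAPC15 by 0.42 ± 0.05. Among 9 mitotic checkpoint genes 8 fell and none rose (median -0.49), with log2 fold changes of -1.32 ± 0.04 for TRIP13, the ATPase that dismantles the checkpoint complex, -1.09 ± 0.07 for MAD2L1, -0.59 ± 0.09 for BUB1B and -0.52 ± 0.07 for BUB1. All 20 genes listed for APC/C substrates fell (median -0.88), among them CDCA3 (-1.61 ± 0.06), the kinase gene PLK1 (-1.49 ± 0.06), TK1 (-1.47 ± 0.05) and PTTG1, which encodes securin (-1.37 ± 0.04). Of 17 genes for SCF substrates 12 fell and 4 rose (median -0.62). CDC25A fell by 1.44 ± 0.08, MYC by 1.01 ± 0.05 and E2F1 by 0.97 ± 0.05, and MCL1, a survival factor that FBXW7 recognises, rose by 0.82 ± 0.04.

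**Figure D5:**
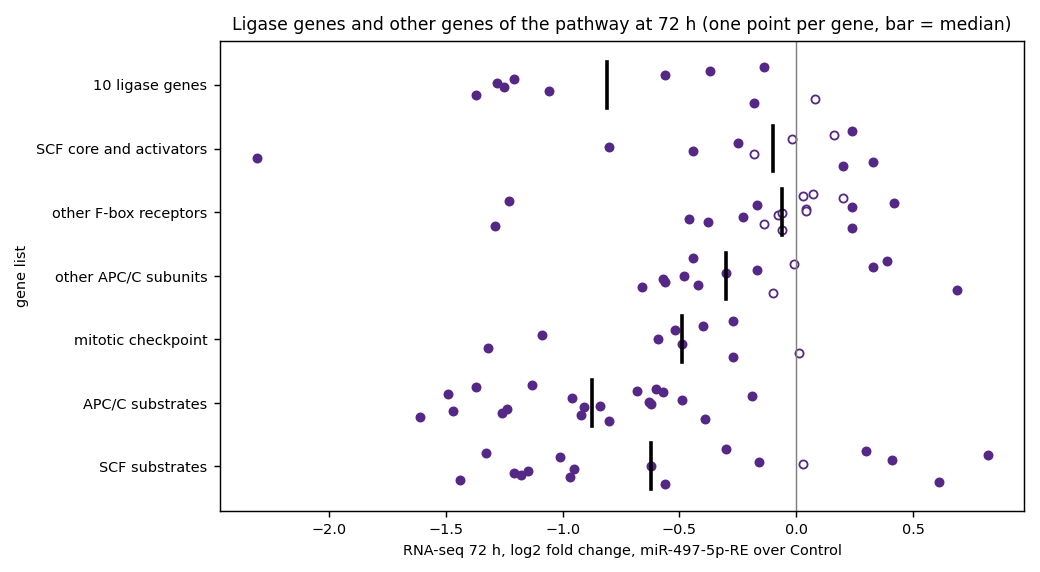
RNA-seq log2 fold change at 72 h, miR-497-5p-RE over Control (horizontal axis), for the 10 ligase genes and 6 lists of other pathway genes, with 1 point per gene (filled where the adjusted p was under 0.05) and a bar at the median. All 20 points of the APC/C substrates are filled and left of 0, and the SCF core list spans from CKS1B at -2.31 to CAND1 at 0.33.

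At 12 h in RNA-seq few of these other genes were called, as among all genes (7.25% higher and 5.3% lower). The counts higher and lower were 3 and 1 of 10 for the SCF core, 1 and 1 of 18 for the F-box receptors, 1 and 1 of 13 for the APC/C subunits, 0 and 1 of 9 for the checkpoint, 1 and 1 of 20 for the APC/C substrates and 1 and 5 of 17 for the SCF substrates. The 3 SCF core genes higher and the 5 SCF substrates lower exceeded those shares, and each other count was 0 or 1. Of 15 listed genes called at both times in RNA-seq, 7 had opposite directions, each higher at 12 h and lower at 72 h. These were ANAPC11 (0.25 ± 0.04 at 12 h), UBE2M (0.21 ± 0.05), RBX1 (0.20 ± 0.04), NEDD8 (0.18 ± 0.04), FBXO22 (0.18 ± 0.04), PTTG1 (0.15 ± 0.04) and MYC (0.14 ± 0.04). The number of all genes that were called at both times with opposite directions was not counted, so these 7 are not shown to be particular to the lists. UBE2R2, a conjugating enzyme of the SCF, fell by 0.18 ± 0.04, CCNF by 0.23 ± 0.05, ANAPC13 by 0.20 ± 0.04, the kinetochore gene KNL1 by 0.32 ± 0.11, TPX2 by 0.11 ± 0.03, CCNE1 by 0.71 ± 0.07 and CCND1 by 0.32 ± 0.03. In the pull-down at 12 h the SCF substrate genes CCNE1 (1.45 ± 0.19, adjusted p 0.00022) and WEE1 (1.71 ± 0.30, adjusted p 0.00538) were called higher and no gene of the other 5 lists was called in either direction by edgeR. The number of genes at an unadjusted p under 0.05 was 2 of 10, 2 of 18, 0 of 13, 1 of 9 and 4 of 20 in those lists. Over all genes tested it was 1763 of 17477. FBXW11, the paralog of BTRC, had -0.01 ± 0.04 in RNA-seq and 0.20 ± 0.19 in the pull-down at 12 h, neither past the threshold.

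In the pull-down at 72 h, where 12.6% of all genes were called lower and 10.2% higher, 12 of the 20 APC/C substrate genes fell and none rose (median -0.87, beside 0.00 over all genes), with log2 fold changes of -2.22 ± 0.13 for CDCA3 and -1.96 ± 0.10 for PTTG1. The checkpoint genes had 3 of 9 lower, among them TRIP13 (-1.46 ± 0.12) and MAD2L1 (-1.39 ± 0.34). The SCF core had 3 of 10 lower, which were RBX1 (-0.91 ± 0.13), COPS5 (-0.54 ± 0.14) and CKS1B (-0.78 ± 0.27). The APC/C subunits had 2 higher and 4 lower of 13, including ANAPC16 (0.81 ± 0.10) and ANAPC11 (-0.55 ± 0.11). The F-box receptors had 2 higher and 1 lower of 18, including FBXW5 (0.49 ± 0.11) and CCNF (-1.02 ± 0.13), close to the shares of all genes. The SCF substrates had 1 higher and 4 lower of 17, including CCND1 (0.59 ± 0.09) and E2F1 (-0.63 ± 0.11).

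Over the 4 RNA-seq group means of log2 CPM, each centred on its gene, the profiles nearest to CDC20 among 10720 genes of at least 5 CPM belonged to FDPS, AAMP and MTG1, at root mean square distances of 0.031, 0.033 and 0.034. For SKP2 the nearest were TBKBP1 (0.017), S1PR3 (0.022) and RABEP2 (0.022). Such likeness over 4 means is a description only.

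Some counts could hold reads of neighbouring or copied genes, since whether counting used strand was not given. CUL1 shares 385 bases, 10.9% of its exon length, with ENSG00000273314 on the opposite strand, which had at most 171 counts in a library. FZR1 shares 70 bases (1.21%) with MFSD12, which is counted more highly, at up to 6520 counts beside up to 4465 for FZR1. FBXO5, CDC27 and FBXW7 share 4.1%, 1.85% and 1.23% of their exon bases with antisense genes of at most 7 counts. The processed copies UBE2CP5, CDC20P1 and UBE2SP1 held 2.01%, 0.929% and 0.365% as many counts as UBE2C, CDC20 and UBE2S, and reads placed equally well in a copy were not counted.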

How the data were processed

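H2052 cells were profiled by RNA-seq and by streptavidin pull-down, 3 libraries in each of 8 groups. The deposited files hold whole-number counts per gene and no normalized values. Per the submitters' processing notes, the authors trimmed reads with Trimmomatic 0.36, aligned them to GRCh38 with STAR 2.5.2b and counted uniquely placed reads within exons with featureCounts of Subread 1.5.2. Uniquely placed reads only means that genes with near-identical copies can lose reads.

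The robust quasi-likelihood test of edgeR 4.0.16 (R 4.3.3) was run on these counts after TMM scaling and the default low-count filter. Each assay had a fit of 12 libraries (17335 and 17477 genes), and each time a fit of 12 libraries for the contrast of assays. The fits by time shared dispersion over the 2 assays. Their biological coefficient of variation was 0.2 at 12 h and 0.175 at 72 h. Benjamini-Hochberg adjustment covered every gene tested. The fit was tested on simulated data first. Alternatives were DESeq2 1.42.0, scaling by library totals, no filter, the 6 libraries compared alone, a replicate block with and without an offset for gene length, and leaving out each library. Whether the replicates came from separate cultures is not stated in the labels, and p-values therefore reflect the spread of these libraries, possibly technical. Libraries of 1 group correlated at 0.99 to 0.997 in RNA-seq and 0.939 to 0.985 in the pull-down, and differed by more than counting error (chi-square per degree of freedom 1.77 to 8.45 and 7.1 to 32.5), so none was counted as a duplicate.

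Sites were searched in GENCODE 44 transcripts, whose symbols matched 56410 of the 57500 identifiers (98.1%), and promoters in RefSeq. The 10 genes, the lists and the marker genes were chosen with earlier results of these data known. From each list were named up to 4 genes called in RNA-seq at 72 h and up to 2 called in each other comparison, by smallest adjusted p, with CKS1B and SKP1 always. RBX1, UBE2M and MYC at 12 h, FBXW11 and CAND1 were named after their values were seen.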

Additional observations from a re-analysis of the deposited data

Results flagged for a closer look

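The effect of miR-497-5p-RE differed between 72 h and 12 h, by a test of the difference itself, in RNA-seq for UBE2S (-1.39), UBE2C (-1.38), FBXO5 (-1.33), FZR1 (-1.19), CDC20 (-1.17), SKP2 (-0.48) and FBXW7 (0.34). In the pull-down it differed for UBE2C (-1.62), CDC20 (-1.03), FZR1 (-0.79) and UBE2S (-0.74). All are differences of log2 fold changes, 72 h minus 12 h, past an adjusted p of 0.05 in edgeR's quasi-likelihood test.

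The pull-down effect differed from the RNA-seq effect at 12 h for FBXW7 (0.91) and at 72 h for BTRC (0.90) and UBE2C (-0.48), as differences of log2 fold changes, pull-down minus RNA-seq. The FBXW7 and BTRC calls each ended in 8 of 12 cases when a library was left out, and the UBE2C call in none. The fits behind these calls shared dispersion over both assays, whose spreads differ.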

How the results depend on the processing

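Of 239 member values of the 4 comparisons of miR-497-5p-RE with Control recomputed under other settings, 213 kept their direction and side of the threshold, and 214 of 240 did when a library was left out. The 72 h falls of CDC20, FZR1, UBE2C and UBE2S in both assays, and of SKP2, BTRC, CDC27 and FBXO5 in RNA-seq, kept their call under every alternative run. Scaling by library totals turned UBE2C to -0.04 in RNA-seq at 12 h, FBXW7 to -0.03 at 72 h, UBE2C to -0.13 and UBE2S to -0.02 between Control times, CDC27 to -0.07 in the pull-down between times, and CUL1 to 0.06, SKP2 to 0.06 and FZR1 to 0.02 in the pull-down minus RNA-seq contrast of 12 h. It left 0 members higher in RNA-seq at 12 h, 2 between Control times and 3 in the 72 h contrast of assays. With it, genes called higher and lower numbered 722 and 1746 in RNA-seq at 12 h (main 1256 and 919), 3808 and 6137 at 72 h (4835 and 5128), 4488 and 8400 between Control times (6255 and 6650), 78 and 17 in the pull-down at 12 h (57 and 47), 854 and 1407 in the pull-down between times (1038 and 1096), and 367 and 33 (168 and 61) and 2085 and 747 (1260 and 1185) in the contrasts of assays at 12 h and 72 h.

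Deviations of same-numbered miR-497-5p-RE and Control libraries correlated at 0.084 to 0.29 in RNA-seq at 12 h, where all 3 matched best with their own number, a hint from the data only, and at -0.039 to 0.067 in the other comparisons. Same-numbered pull-down and RNA-seq libraries correlated at -0.191 to 0.131. In no comparison were all pairs over 0.1, so the numbers were not taken as pairs. With the replicate block UBE2S passed the test at 12 h in RNA-seq (adjusted p 0.0116). The block gave 2 members higher in RNA-seq at 12 h and 0 in the 72 h contrast of assays, where BTRC had an adjusted p of 0.0627. With an offset for gene length as well, the block gave 0 members higher at 12 h in RNA-seq and 0 in the pull-down, FZR1 at 0.00 and UBE2C at -0.08 in RNA-seq at 12 h, and FBXW7 at -0.00 at 72 h. Fitting only the 6 libraries compared gave 0 members higher at 12 h in either assay, 1 in the pull-down at 72 h, and 12 genes lower in the pull-down at 12 h. Without a filter, 1 member was lower in the pull-down at 12 h, with 108 genes higher and 109 lower. DESeq2 gave 1 member lower there with 269 genes lower, and 1 member higher at 72 h. The cause of these shifts was not tested.

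Leaving out each library in turn gave 0 to 2 members higher and 590 to 988 genes lower in RNA-seq at 12 h, with FZR1 at -0.06 to 0.05 and UBE2C at -0.00 to 0.03. In the pull-down at 12 h it gave 0 to 1 members higher, 34 to 68 genes higher and 27 to 206 lower, with CDC27 at -0.01 to 0.11 and FBXO5 at -0.40 to 0.16. CDC27 ran from -0.01 to 0.19 in the pull-down at 72 h and from -0.06 to 0.13 between times. In the contrast of assays at 12 h, 0 to 1 members were higher and 0 to 1 lower, 36 to 468 genes higher and 6 to 224 lower, with SKP2 at -0.16 to 0.08 and FBXO5 at -0.44 to 0.10. At 72 h, 0 to 2 members were higher and 1 to 2 lower, with SKP2 at -0.01 to 0.19. Low pull-down counts limit FBXO5, CUL1 and BTRC.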
